A study of Mus musculus with 9 samples.

Results

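Invariant natural killer T (iNKT) cells of the thymus express the receptors of the signalling lymphocytic activation molecule (SLAM) family and pass their signals on through the adaptor SAP and the kinase Fyn. Here 8 genes of this pathway, taken by their gene symbols from a table of 21883 genes, were followed in every library. They were the receptor genes *Slamf1*, *Slamf6*, *Ly9*, *Cd48* and *Cd84*, the SAP gene *Sh2d1a*, and the kinase genes *Fyn* and *Prkcq*. The 9 libraries were total RNA of sorted thymic iNKT cells of C57BL/6 background, with 3 libraries of wild-type (WT) stage 2 cells, 3 of WT stage 3 cells and 3 of *Med23*-deficient stage 2 cells. The WT mice were 6 weeks old, and the labels give no age for the *Med23*-deficient mice. The *Med23*-deficient samples are numbered apart from the WT samples, and the labels do not say whether all 9 were prepared together. A difference of preparation cannot be told apart from one of genotype here. *Med23* encodes a subunit of the Mediator complex, a bridge between transcription factors and RNA polymerase II. In the *Med23*-deficient mice, floxed *Med23* alleles (*Med23* fl/fl) were cut by a *Cd4*-*Cre* transgene, whose promoter is switched on in thymocytes at the CD4 and CD8 double-positive step, so that all T cells derived from them, and not iNKT cells alone, carry the deletion. Stage 2 and stage 3 are steps of iNKT maturation told apart by surface NK1.1, which is low at stage 2 and high at stage 3. Stage 3 cells of the *Med23*-deficient mice were not analysed here. The study describes its data as coming from independent experiments, but the labels do not tie the 3 libraries of a group to separate mice, so the p-values below measure the spread between these libraries, part of which may be technical.

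iNKT precursors are selected on lipid-presenting CD1d by other double-positive thymocytes, and contacts between like SLAM receptors on the neighbouring cells supply a second signal. Most of these receptors carry cytoplasmic tyrosine motifs that bind SAP, and SAP brings in the Src family kinase Fyn. The protein kinase C isoform PKC-theta, the product of *Prkcq*, acts further on, towards NF-kB and the cytokine IL-4. Mice without SAP or without Fyn are known for a severe loss of iNKT cells.

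The 5 receptor genes are neighbours on chromosome 1. Together with *Slamf7* and *Cd244*, 2 further receptors of the family, they lie in a stretch of 394 kb (mm10, 171559193 to 171953170). The gene spans were 171588624 to 171607410 on the minus strand for *Ly9*, 171682009 to 171705258 on the plus strand for *Cd48* and 171767127 to 171801184 on the plus strand for *Slamf1*. *Cd84* (171839697 to 171890718) and *Slamf6* (171917515 to 171953170) follow, both on the plus strand. *Sh2d1a* lies on chromosome X (42502453 to 42529330), *Fyn* on chromosome 10 (39368855 to 39565381) and *Prkcq* on chromosome 2 (11172108 to 11301222), all on the plus strand. For 6 of the 8 genes RefSeq (GRCm38.p6, the same assembly as mm10) gave a promoter of 300 bases, from 250 before to 50 after the RefSeq start. That start can differ from the start of the gene span given above, and the whole *Slamf6* window lies before the start of its span. The promoters of *Slamf6*, *Slamf1*, *Cd84* and *Cd48* are shown because the WT stage 3 libraries of these neighbours all stood on 1 side of the WT stage 2 libraries. The stage 3 libraries were lower for the first 3 and higher for *Cd48*, although *Slamf6* alone passed the test over all genes. Each reads 5′ to 3′ on the plus strand, and capitals mark any match, on either strand, to 6 short motifs of T cell transcription factors. The motifs were an E-box (CANNTG), T-box (GGTGTGA), Runx (TGTGGT), Ets (GGAAGT), TCF (CTTTGA) and AP-1 (TGANTCA) motif.
*Slamf6*, chr1:171917212-171917511: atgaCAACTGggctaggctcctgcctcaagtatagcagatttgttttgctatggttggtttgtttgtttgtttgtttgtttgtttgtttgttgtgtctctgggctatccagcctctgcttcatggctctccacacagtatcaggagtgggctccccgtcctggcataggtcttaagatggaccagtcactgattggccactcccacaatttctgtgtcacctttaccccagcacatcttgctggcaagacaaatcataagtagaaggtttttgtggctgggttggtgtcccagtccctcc
*Slamf1*, chr1:171766882-171767181: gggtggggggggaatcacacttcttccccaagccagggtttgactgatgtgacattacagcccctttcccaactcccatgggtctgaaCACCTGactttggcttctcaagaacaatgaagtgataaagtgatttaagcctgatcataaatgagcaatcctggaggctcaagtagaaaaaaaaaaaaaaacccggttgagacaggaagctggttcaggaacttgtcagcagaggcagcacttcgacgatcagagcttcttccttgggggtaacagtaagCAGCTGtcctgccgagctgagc
*Cd84*, chr1:171839447-171839746: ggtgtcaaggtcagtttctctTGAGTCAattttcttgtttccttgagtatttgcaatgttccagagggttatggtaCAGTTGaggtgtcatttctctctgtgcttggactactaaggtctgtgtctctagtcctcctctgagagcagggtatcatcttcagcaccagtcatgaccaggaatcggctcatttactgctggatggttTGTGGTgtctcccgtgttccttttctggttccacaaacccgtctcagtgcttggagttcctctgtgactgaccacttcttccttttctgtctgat
*Cd48*, chr1:171681742-171682041: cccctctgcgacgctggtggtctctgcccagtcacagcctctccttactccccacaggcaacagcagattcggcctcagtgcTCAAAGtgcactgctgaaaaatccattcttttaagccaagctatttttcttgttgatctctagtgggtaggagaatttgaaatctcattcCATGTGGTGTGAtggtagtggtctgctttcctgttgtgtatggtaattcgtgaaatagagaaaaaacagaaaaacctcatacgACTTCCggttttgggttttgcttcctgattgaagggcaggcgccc

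The *Slamf6* and *Slamf1* windows held the E-box alone of these 6 motifs, with 1 and 2 matches, and the E-box occurred in 72.3% of the 32851 mouse promoters of that length. The *Cd84* window held 3 of the 6, an E-box, a Runx and an AP-1 match. The *Cd48* window held 5 of the 6, all but AP-1. Its E-box, Runx and T-box matches overlapped in 1 run of capitals, and its Ets match stood just after the RefSeq start. A T-box match occurred in 3.98% of all promoters, a Runx match in 16.8%, an Ets match in 23.8%, a TCF match in 16.0% and an AP-1 match in 7.81%. The motifs were chosen after the values were known, and a match describes the letters only.

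Expression was measured as FPKM, which counts fragments per transcript length and per mapped total, so levels can be set beside each other between genes. The table gives no read counts, which leaves the sequencing depth unknown, and 15584 to 17333 genes lay above 0 FPKM per library. *Med23* itself, the targeted gene, had 5.51, 5.15 and 6.74 FPKM in WT stage 2, against 4.80, 3.60 and 3.92 FPKM in *Med23*-deficient stage 2. FPKM pools all exons of the gene, so the floxed part was not checked by this value. The 4 listed markers of iNKT and other T cells were present in every group, with summed FPKM of 519 to 558 in WT stage 2, 556 to 651 in *Med23*-deficient stage 2 and 481 to 585 in WT stage 3. *Klrb1c*, the gene of the sorted marker NK1.1, stood at 16.3, 26.2 and 7.65 FPKM in WT stage 2, 4.60, 2.61 and 3.04 FPKM in *Med23*-deficient stage 2, and 57.3 to 95.1 FPKM in WT stage 3. The 8 markers of double-positive thymocytes summed to between 3.68 and 9.55 FPKM in any library. All 3 B cell markers with a value were at 0 in *Med23*-deficient stage 2. They summed to 4.53 to 6.76 FPKM in WT stage 2 and to 0.09 to 0.70 FPKM in WT stage 3. In WT stage 2 nearly all of the sum was *Blk*, at 6.76, 6.12 and 4.53 FPKM. *Cd79a* was at 0 there and *Cd79b* at most at 0.50 FPKM, so the sum does not rest on the list as a whole. The 4 myeloid markers with a value summed to at most 2.33 FPKM and the 1 erythroid marker to at most 0.75 FPKM. The gamma-delta T cell list, *Tcrg-C1*, *Tcrg-C2*, *Trgv2* and *Trdc*, summed to 300 to 360 FPKM in both WT groups and to 1.44 to 6.36 FPKM in *Med23*-deficient stage 2, while *Trdc*, the delta chain gene, was at most 0.38 FPKM in any library. The part of *Klrb1c*, *Blk* and these gamma chain genes in any result below was not tested.

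Between the WT stages, *Slamf6* was lower in stage 3 and was the only one of the 8 genes to pass the test over all genes. The stages were sorted as separate cells, and no cells were followed from stage 2 to stage 3. *Slamf6* encodes Ly108, a receptor that binds itself on the neighbouring cell. Its 3 WT stage 2 libraries stood at 11.34, 9.75 and 14.66 FPKM, and the 3 of WT stage 3 at 0.84, 1.34 and 1.23 FPKM. Every stage 3 library thus lay far below every stage 2 library. The means were 11.9 ± 2.51 and 1.14 ± 0.263 FPKM (SD, n = 3 each), a ratio of 0.0954. The log2 fold change was -2.59 (95% interval -3.11 to -2.06, limma adjusted p = 0.0117), on the log2(FPKM + 1) scale used for all fold changes here, which understates the change of low genes. That p was above the threshold when one of 3 libraries was left out, at 0.0590 for replicate 3 of WT stage 2 and at 0.0512 and 0.0660 for replicates 2 and 3 of WT stage 3, and it was 0.160 in an ordinary linear model per gene after Ballgown. In these bulk libraries, fewer cells with a transcript and less transcript per cell cannot be told apart. An antisense gene model, Gm37065, overlaps the start of the *Slamf6* span and was listed at 0 to 1.28 FPKM. Whether its reads were kept apart from those of *Slamf6* by strand is not given in the sources used here.

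*Slamf1*, also called CD150, is the other receptor that binds itself in the selection of iNKT cells, and it was the lowest of the 8 genes. Its levels were 1.30, 3.31 and 2.73 FPKM in WT stage 2 and 0.86, 0.88 and 0.82 FPKM in WT stage 3. The groups did not overlap, but WT stage 2 replicate 1 lay nearer to the stage 3 libraries than to the other two of its group. Its log2 fold change was -0.85 (95% interval -1.58 to -0.11, limma adjusted p = 0.296), and it was -1.11 without that library.

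*Cd48* was the one gene of the 8 whose stage 3 libraries were all higher. CD48 is a lipid-anchored protein with no cytoplasmic tail of its own and is the ligand of CD244. WT stage 2 libraries held 15.66, 18.40 and 22.91 FPKM of it, and WT stage 3 libraries 43.53, 30.40 and 31.02 FPKM. The lowest stage 3 library was above the highest stage 2 library, with means of 19.0 ± 3.66 and 35.0 ± 7.41 FPKM (SD, n = 3 each). Its log2 fold change of 0.84 (95% interval 0.37 to 1.32) did not reach the threshold over all genes (limma adjusted p = 0.118). A short unconfirmed gene model on the same strand, Gm37010, lies within the *Cd48* span and was listed at 0.48 to 3.07 FPKM.

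*Cd84*, a further receptor that binds itself, had values of 26.66, 29.90 and 35.36 FPKM in WT stage 2, against 20.03, 22.44 and 24.60 FPKM in WT stage 3. All stage 3 libraries were lower, by a narrow margin, with a log2 fold change of -0.43 (95% interval -0.76 to -0.10, limma adjusted p = 0.233). *Ly9*, or CD229, had the highest level of the 5 receptor genes in each group. Its values of 40.59, 54.05 and 37.90 FPKM in WT stage 2 overlapped those of 55.17, 46.28 and 45.60 FPKM in WT stage 3. Its log2 fold change was 0.16, with an interval that spans 0 (95%, -0.23 to 0.54). *Ly9* lies within the span of *Cd244* on the opposite strand. The libraries were stranded, but whether the counting used strand is not given in the sources used here. In the stage 2 libraries of both genotypes *Cd244* was listed at 0.16 FPKM or less while *Ly9* stood at 34.88 to 54.05 FPKM.

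The SAP gene *Sh2d1a* was low beside the kinases, at 3.82, 4.76 and 3.97 FPKM in WT stage 2, against 4.76, 4.02 and 1.83 FPKM in WT stage 3. The 2 groups overlapped, and WT stage 3 replicate 3 stood apart below the rest. This came to a log2 fold change of -0.25 (95% interval -1.00 to 0.50, limma adjusted p = 0.740), or 0.06 without that library.

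*Fyn* had the highest mean of the 8 genes in each group. Its levels were 59.08, 59.15 and 58.28 FPKM in WT stage 2 and 52.63, 51.83 and 48.71 FPKM in WT stage 3. The stage 3 libraries were all lower, but the difference was small, with a log2 fold change of -0.20 (95% interval -0.37 to -0.03, limma adjusted p = 0.286). *Prkcq*, which encodes PKC-theta, had 50.53, 44.88 and 52.08 FPKM in WT stage 2, against 37.82, 39.81 and 35.12 FPKM in WT stage 3. Again no stage 3 library reached the stage 2 range, and the log2 fold change was -0.38 (95% interval -0.61 to -0.15, limma adjusted p = 0.140). The *Prkcq* span holds 2 short unconfirmed gene models on the same strand, Gm36932 at 9.34 to 33.5 FPKM and Gm37766 at 4.81 to 8.54 FPKM over the 9 libraries. How reads were shared between them and *Prkcq* is not given in the sources used here.

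**Figure D1:**
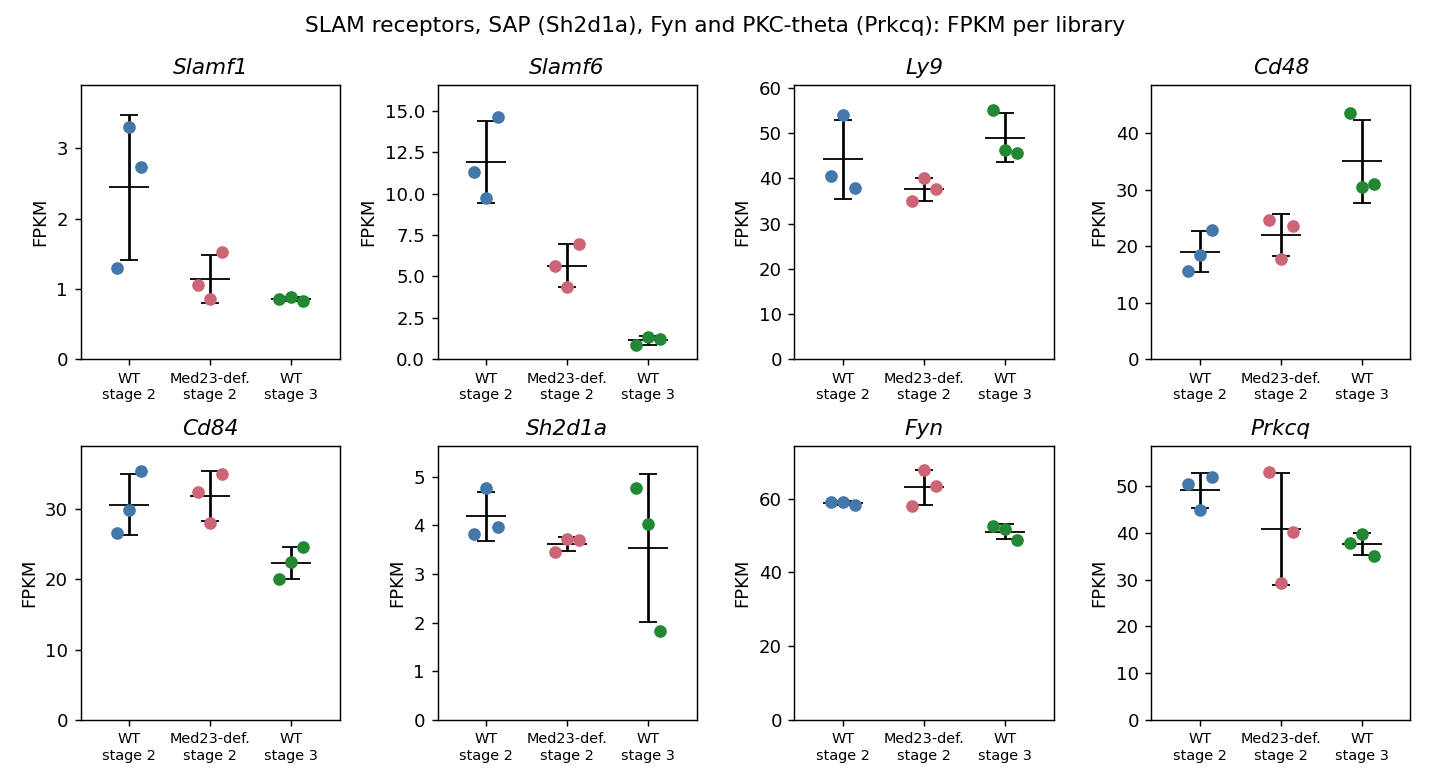
FPKM of the 8 genes (one panel each, y axis from 0) in WT stage 2, *Med23*-deficient stage 2 and WT stage 3, with points for the 3 libraries and black lines for the mean ± SD. The *Slamf6* groups follow each other without overlap from 11.9 to 5.65 to 1.14 FPKM, *Cd48* is higher in WT stage 3 than in both stage 2 groups, and *Cd84* and *Fyn* are lower there.

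Counted together, 1 of the 8 genes, *Slamf6*, differed by 2-fold or more at an unadjusted limma p of up to 0.05 between the WT stages, where 3.60% of the 20689 genes tested did. *Slamf6* was also the 1 gene with an adjusted p of at most 0.05, where 1.67% of all genes passed. Of the 8 genes, 6 had an unadjusted limma p of at most 0.05, against 13.2% of all genes. The same 6 did not overlap between the groups, against 17.8% of all genes. These were *Cd48*, which was higher, and *Slamf6*, *Slamf1*, *Cd84*, *Fyn* and *Prkcq*, which were lower. The 20689 genes include those of very low level. In a fit of the 11781 genes averaging 1 FPKM or more, 698 passed the fold and p thresholds and 496 the adjusted limma p. The shares of 13.2% and 17.8% were not taken among those genes alone. The median log2 fold change of the 8 genes was -0.31, beside -0.05 for all genes averaging 1 FPKM or more.

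Between *Med23*-deficient and WT cells of stage 2, *Slamf6* again had the largest of the 8 differences on the log2(FPKM + 1) scale, and no gene of the 8 passed the test over all genes. The *Med23*-deficient libraries held 5.62, 4.35 and 6.98 FPKM of *Slamf6*, all below the 9.75 to 14.66 FPKM of WT stage 2. The mean of 5.65 ± 1.32 FPKM (SD, n = 3) was 0.474 of the WT mean, and for *Slamf1* that ratio was 0.466. Its log2 fold change was -0.96 (95% interval -1.49 to -0.43), just short of a 2-fold change on the log2(FPKM + 1) scale, with an unadjusted limma p of 0.00427 and an adjusted p of 0.206. The stage 2 libraries of the 2 genotypes also differed in *Klrb1c*, the gene of the marker that separates the stages, as given above. *Klrb1c* was lower in every *Med23*-deficient library (log2 fold change -1.88, limma adjusted p = 0.210). The part of this in the *Slamf6* difference was not tested. The 2 comparisons share the WT stage 2 libraries.

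*Slamf1*, with *Med23*-deficient values of 1.05, 0.85 and 1.52 FPKM, overlapped WT stage 2 through the WT library at 1.30 FPKM. Its log2 fold change was -0.65 (95% interval -1.45 to 0.15, limma adjusted p = 0.609). *Sh2d1a* was lower in every *Med23*-deficient library, at 3.45, 3.72 and 3.69 FPKM against a lowest WT stage 2 value of 3.82 FPKM. That gap was narrow, and the log2 fold change of -0.16 had a 95% interval of -0.59 to 0.27 (limma adjusted p = 0.762).

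The other five genes overlapped between the genotypes. *Cd48*, with 24.56, 17.76 and 23.64 FPKM in *Med23*-deficient cells, had a log2 fold change of 0.20 (95% interval -0.25 to 0.65). *Ly9*, with 34.88, 40.07 and 37.75 FPKM, had one of -0.21 (95% interval -0.57 to 0.15). Both intervals span 0. *Cd84* stood at 32.44, 28.06 and 35.04 FPKM with a log2 fold change of 0.06 (95% interval -0.28 to 0.39), and on the TPM scale, where values are rescaled to a common sum, it was -0.07. *Fyn*, at 58.15, 67.81 and 63.34 FPKM, differed by 0.10 (95% interval -0.10 to 0.30), which was -0.03 on the TPM scale. The sign of the small differences in *Cd84* and *Fyn* therefore depended on the scale. The sum behind the TPM scale was mostly a single short gene model, Gm23935, which took 62.2% to 71.9% of the summed FPKM of a library. *Prkcq* spread most among the *Med23*-deficient libraries, with 53.14, 29.25 and 40.19 FPKM, and its log2 fold change was -0.30 (95% interval -0.82 to 0.22). For these 5 genes the limma adjusted p was between 0.731 and 0.902.

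In this comparison 0 of the 8 genes differed by 2-fold or more at an unadjusted limma p of up to 0.05, where 2.11% of the 20674 genes tested did. That count was 1, *Slamf6*, with a pseudocount of 0.1 or 0.01 in place of 1 and on the TPM scale. By adjusted limma p, 0 of 8 passed, where 0.213% of all genes did. At an unadjusted limma p of at most 0.05 there was 1, *Slamf6*, against 9.58% of all genes. The groups did not overlap for 2 of 8, *Slamf6* and *Sh2d1a*, against 14.0% of all genes, and the median log2 fold change of the 8 was -0.19. With 3 libraries in each group the smallest p of an exact permutation test is 0.1. Genes were tested within limma, apart from the alternative linear model after Ballgown.

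**Figure D2:**
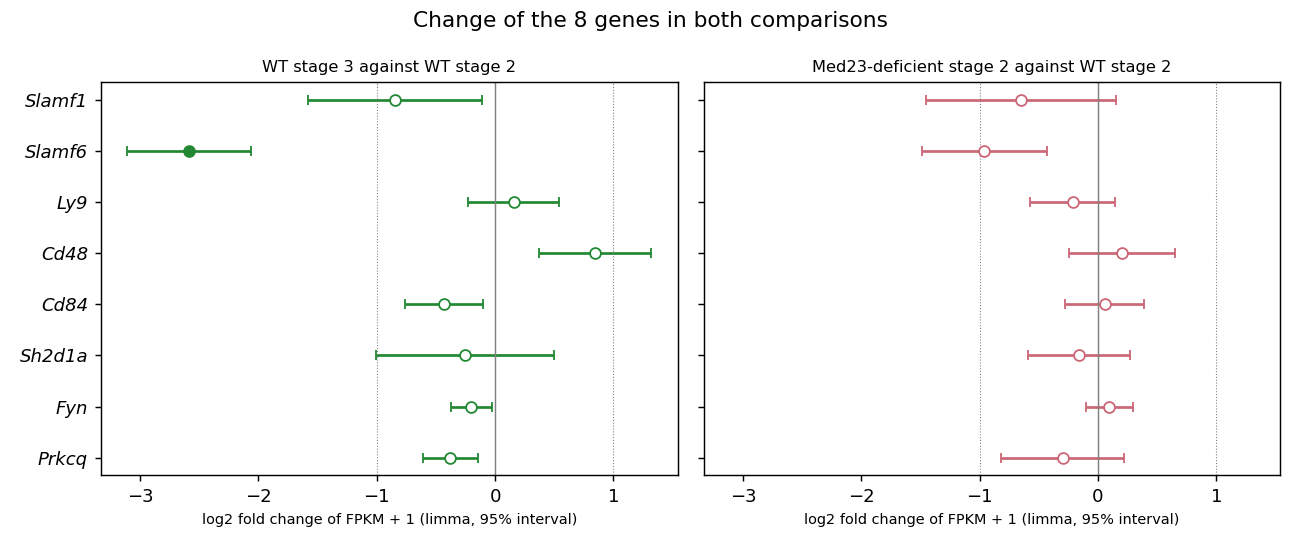
Log2 fold change of FPKM + 1 for the 8 genes, WT stage 3 against WT stage 2 on the left and *Med23*-deficient stage 2 against WT stage 2 on the right, with 95% intervals from limma on the same x axis. The filled point, *Slamf6* at -2.59, has an adjusted p of at most 0.05; open points do not, and dotted lines mark a 2-fold change.

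Set in order over the 3 groups, *Slamf6* went from WT stage 2 through *Med23*-deficient stage 2 to WT stage 3 with no overlap at either step, a 10.5-fold range of means. For *Cd48* the WT stage 3 libraries stood above both stage 2 groups, which overlapped. For *Cd84* and *Fyn* they stood below both stage 2 groups, which again overlapped. *Sh2d1a* in WT stage 2 lay above the *Med23*-deficient libraries, and these overlapped WT stage 3. For *Slamf1*, *Ly9* and *Prkcq* each group overlapped its neighbour in the order of means. Between genes, the order of mean FPKM in WT stage 2 was *Fyn*, *Prkcq*, *Ly9*, *Cd84*, *Cd48*, *Slamf6*, *Sh2d1a* and *Slamf1*, and it was the same in *Med23*-deficient stage 2. In WT stage 3, *Ly9* stood above *Prkcq*, *Cd48* above *Cd84*, and *Sh2d1a* above *Slamf6*.

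The makeup of the receptor transcripts differed with these changes. The 7 receptor genes of the cluster summed to 115 ± 10.9 FPKM in WT stage 2, 103 ± 7.92 FPKM in *Med23*-deficient stage 2 and 163 ± 11.4 FPKM in WT stage 3 (SD, n = 3 each). The share of *Slamf6* in that sum was 10.5% ± 2.28, 5.45% ± 0.859 and 0.704% ± 0.197 in the same order of groups. *Ly9* made up 38.5% ± 6.09, 36.7% ± 4.66 and 29.9% ± 1.26 of it, and *Cd84* 26.7% ± 2.80, 30.9% ± 1.23 and 13.8% ± 2.31. The share of *Cd48* in WT stage 3, 21.3% ± 3.04, overlapped that in WT stage 2, 16.5% ± 2.41, although its level did not. Much of the larger sum in WT stage 3 was *Slamf7*, whose share went from 5.70% ± 1.21 in WT stage 2 and 4.44% ± 0.789 in *Med23*-deficient stage 2 to 31.1% ± 2.31.

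**Figure D3:**
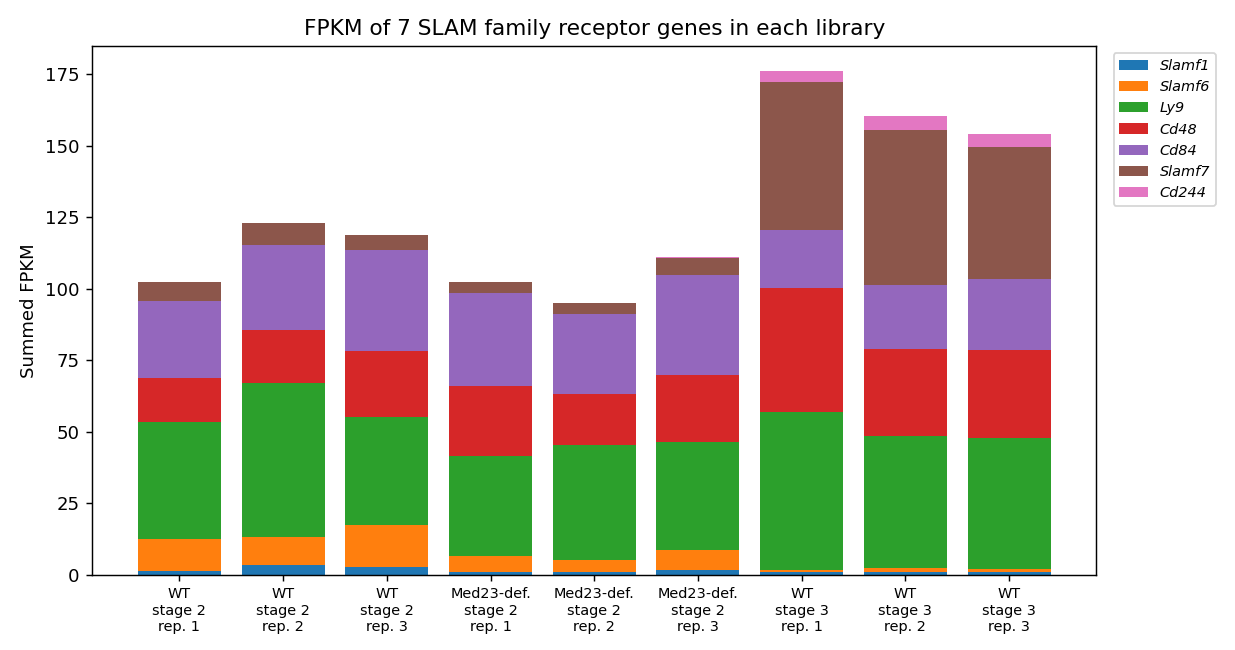
Summed FPKM of 7 SLAM family receptor genes in each of the 9 libraries, stacked by gene from 0. The WT stage 3 bars reach 154 to 176 FPKM against 102 to 123 in WT stage 2 and 95.2 to 111 in *Med23*-deficient stage 2, with a thin *Slamf6* band and a broad *Slamf7* band.

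Around the 8 genes, a list of 26 receptors, adaptors, kinases, phosphatases, effectors and targets of the pathway was read in the same fits, and 22 of them had a value. The list was chosen with earlier results of these data known. The shares of all genes given beside its counts include genes of very low level. Between the WT stages 4 of the 22 passed the same fold and p limits, *Slamf7* and *Cd244* higher and *Zbtb16* and *Il4* lower, where 3.60% of all genes did. *Slamf7*, or CRACC, which binds itself, rose from 6.74, 7.62 and 5.13 FPKM to 52.02, 54.12 and 46.24 FPKM (log2 fold change 2.80, limma adjusted p = 0.00368). *Cd244*, or 2B4, the receptor for CD48, had listed values of 0, 0 and 0.04 FPKM in WT stage 2 libraries and of 0, 0 and 0.16 FPKM in *Med23*-deficient stage 2, and rose to 3.65, 4.88 and 4.51 FPKM in WT stage 3 (limma adjusted p = 0.0122). *Cd244* and its ligand gene *Cd48* thus both had their highest values in WT stage 3.

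*Zbtb16*, which encodes PLZF, the transcription factor that sets the iNKT programme, fell from 112.43, 87.96 and 102.71 FPKM to 22.72, 33.37 and 26.36 FPKM (log2 fold change -1.85, limma adjusted p = 0.0122). *Il4* went from 18.44, 25.56 and 15.40 FPKM to 3.46, 7.51 and 5.66 FPKM (log2 fold change -1.69, limma adjusted p = 0.0580). By adjusted limma p, 3 of the 22 passed, namely *Slamf7*, *Cd244* and *Zbtb16*, against 1.67% of all genes. The groups of 11 of the 22 did not overlap, 5 higher and 6 lower, against 17.8% of all genes. The list's median log2 fold change was 0.02, beside -0.05 for all genes averaging 1 FPKM or more.

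In *Med23*-deficient stage 2, 0 of the 22 passed the fold and p thresholds and 0 the adjusted limma p, where 2.11% and 0.213% of all genes did. Of the 22, 8 had an unadjusted limma p of 0.05 or less, against 9.58% of all genes. The 8 were *Gata3*, *Csk*, *Ptprc*, *Inpp5d* and *Il4*, which were higher, and *Rasa1*, *Egr2* and *Zbtb16*, which were lower. *Gata3*, a transcription factor of IL-4-producing cells, stood at 77.18, 69.69 and 60.69 FPKM against 35.81, 38.10 and 42.47 FPKM in WT stage 2 (log2 fold change 0.82, limma adjusted p = 0.0786). *Rasa1*, a Ras GTPase-activating protein that SLAM signals reach through Dok adaptors, stood at 39.09, 36.88 and 34.36 FPKM against 59.67, 78.18 and 63.22 FPKM (log2 fold change -0.84, limma adjusted p = 0.0801). Neither gene overlapped between the genotypes. *Rasa1* was also lower in every WT stage 3 library than in WT stage 2 (log2 fold change -0.66, limma adjusted p = 0.0770).

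*Csk*, the kinase that switches Src family kinases off, had log2 fold changes of -0.30 between the WT stages and 0.35 in *Med23*-deficient cells (limma adjusted p = 0.202 and 0.376). *Ptprc*, or CD45, the phosphatase that opens them, had log2 fold changes of 0.50 and 0.35 (limma adjusted p = 0.0590 and 0.420). The NF-kB genes downstream of PKC-theta, *Bcl10*, *Malt1*, *Ikbkb*, *Nfkb1* and *Rela*, passed neither threshold in either comparison. The widest difference among these was that of *Malt1*, with a log2 fold change of 0.88 between the WT stages (limma adjusted p = 0.131).

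**Figure D4:**
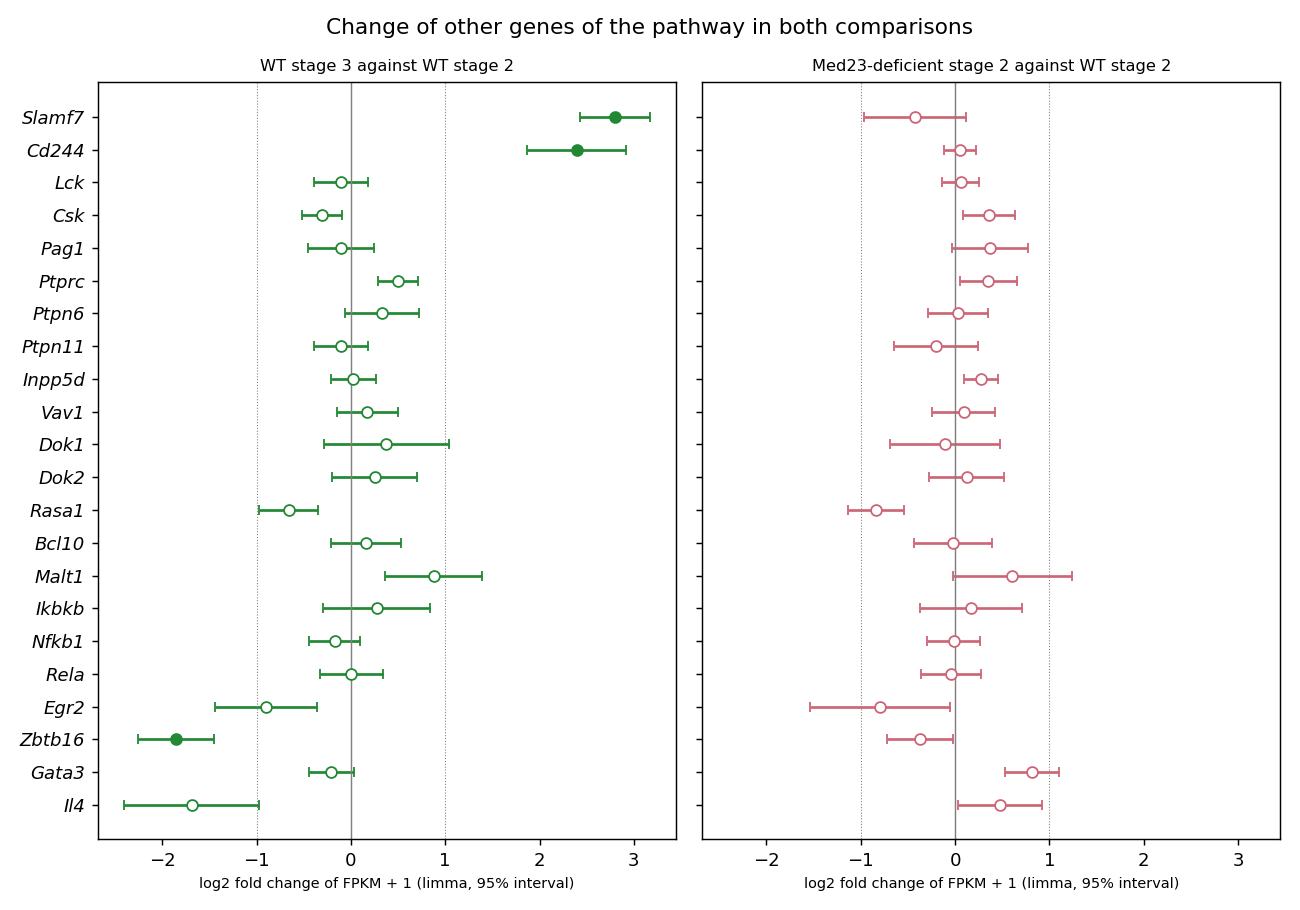
Log2 fold change of FPKM + 1 with 95% limma intervals for the 22 other genes of the pathway, WT stage 3 against WT stage 2 on the left and *Med23*-deficient stage 2 against WT stage 2 on the right, on the same x axis. Filled points (*Slamf7*, *Cd244* and *Zbtb16*, on the left) have an adjusted p of at most 0.05, and dotted lines mark a 2-fold change.

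The genes nearest in pattern were found for the 3 members with the widest range of group means, *Slamf6*, *Slamf1* and *Cd48*. The measure was the root mean square difference of log2(FPKM + 1), each gene centred on its mean over the 9 libraries, among 9653 genes. Nearest to *Slamf6* were *Xkrx* (0.147), *Irf4* (0.291) and *Icos* (0.338). *Icos*, a costimulatory receptor, had group means of 137 FPKM in WT stage 2, 90.6 FPKM in *Med23*-deficient stage 2 and 33.6 FPKM in WT stage 3, and *Irf4*, a transcription factor, had 7.89, 4.54 and 0.537 FPKM. *Xkrx* had a listed value of 0 in each WT stage 3 library. Nearest to *Slamf1* were *Ube2e1* (0.150), *Zfp52* (0.158) and *Rnf2* (0.173), and nearest to *Cd48* were *Nln* (0.153), *Lrrc8c* (0.172) and *Nedd4* (0.175). Such a likeness is a description over 9 libraries that share 3 groups.

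**Figure D5:**
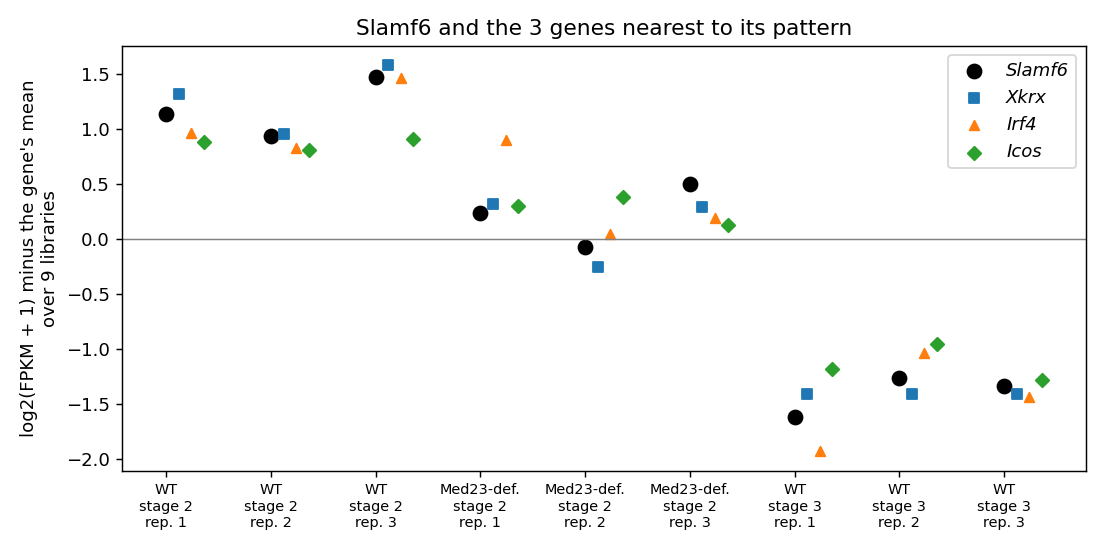
Level of *Slamf6*, *Xkrx*, *Irf4* and *Icos* in each of the 9 libraries, as log2(FPKM + 1) minus the gene's mean. The 4 genes are all high in WT stage 2 and low in WT stage 3, with the mean of *Med23*-deficient stage 2 between. The 3 *Slamf6* values in each group stay apart from those of the other groups. For *Irf4*, *Med23*-deficient replicate 1 (6.68 FPKM) is above WT stage 2 replicate 2 (6.29 FPKM). *Xkrx*, *Irf4* and *Icos* were picked for their nearness to *Slamf6*.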

How the data were processed

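RNA of 9 libraries was prepared with the SMARTer Stranded Total RNA-Seq Pico Input kit. Per the study's methods and the submitters' processing notes, reads were trimmed with Trimmomatic 0.36 and aligned to mm10 with HISAT2, and those hitting few loci were quantified on GENCODE vM12 with StringTie. The authors deposited the resulting FPKM per gene and library, with replicates kept apart. Low values were not whole multiples of a read, so depth stayed unknown and no counting interval is given. No pair of libraries looked like 1 library deposited again, since at most 0.826% of genes above 0 had equal values.

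Log2(FPKM + 1) was fitted with limma 3.58.1 (R 4.3.3, lmFit and eBayes with trend) over the 6 libraries of each comparison and all genes above 0 in at least 1 of them. The thresholds were the study's fold change of at least 2 with p of at most 0.05, and 0.05 for the p adjusted over all genes by Benjamini and Hochberg. The fit was tested on simulated data. Named genes were the 8 members, the pathway genes past a threshold or with a clear role beside a member, and the 3 genes nearest in pattern to each of 3 members. The members, the lists and the motifs were chosen with earlier results of these data known. Of the listed genes, *Slamf8*, *Slamf9*, *Sh2d1b1* and *Sh2d1b2* were not analysed here. A further pathway gene is not reported here. Gene spans of the 8 members came from the deposited table, and promoters from RefSeq GRCm38.p6. The alternatives were pseudocounts of 0.1 and 0.01, only genes averaging 1 FPKM or more, a common upper quartile, the TPM scale, limma without trend, an ordinary linear model after Ballgown, all 9 libraries in 1 fit, a replicate block and each library left out. The model after Ballgown added a term for library size to the fit of each gene and used that gene's own variance. Python 3.11.15, numpy 2.4.6, pandas 2.3.3 and matplotlib 3.10.9 made the summaries and plots.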

Additional observations from a re-analysis of the deposited data

How the results depend on the processing

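Over 15 alternatives, 230 of the 240 values of the 8 genes kept their direction and their side of an adjusted p of 0.05. The main fits called only 1 of the 16 pairs of gene and comparison, *Slamf6* between the WT stages. That call was lost in 5 of the alternatives, so the count of 230 rests mainly on pairs not called in the main fits. The causes of the changes were not tested. Between the WT stages, 2 genes passed the fold and p thresholds in place of 1 with pseudocounts of 0.1 and of 0.01 (*Slamf1* added) and 2 in the Ballgown-style model (*Cd48* added), and 1 to 2 with a library left out (2 without WT stage 2 replicate 1). The count by adjusted p was 0 in place of 1 in the Ballgown-style model (*Slamf6* adjusted p = 0.160) and 0 under the replicate block (0.0808), with 0 to 1 when a library was left out. The log2 fold change of *Slamf6* ranged from -3.39 to -2.42 and its adjusted p from 0.0013 to 0.160, with the limma fits reaching at most 0.0808. In *Med23*-deficient stage 2 the fold and p thresholds were passed by 1 gene, *Slamf6*, in place of 0 with pseudocounts of 0.1 and of 0.01 and on the TPM scale, and 0 to 1 with a library left out (1 without WT stage 2 replicate 2 or *Med23*-deficient replicate 3). The log2 fold change of *Sh2d1a* between the WT stages ranged from -0.46 to 0.0574 with a library left out, and turned without WT stage 3 replicate 3. In *Med23*-deficient stage 2 that of *Cd84* was -0.0685 on the TPM scale and -0.03 to 0.16 with a library left out, turning to -0.0349 without WT stage 2 replicate 1 and to -0.0123 without *Med23*-deficient replicate 3. That of *Fyn* was -0.0320 on the TPM scale.

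The labels do not say whether the same replicate number pairs the libraries, and the main fits did not pair them. Deviations from the group means correlated across genes at 0.0845, 0.0310 and 0.161 for the same number in the WT comparison, where every library correlated best with its own number, and at 0.0346, 0.00429 and 0.144 in the other, where this held for replicate 3 alone. Among all genes, those past the fold and p thresholds numbered 745 (583 to 1452 over the alternatives) between the WT stages and 437 (339 to 974) in *Med23*-deficient stage 2, and by adjusted p 346 (5 to 600) and 44 (0 to 162). The share of higher genes among the 437 was 37.8%, against 26.0% on the TPM scale and 51.9% in the Ballgown-style model. Genes averaging 1 FPKM or more had a median log2 fold change of -0.05 in both comparisons and, on the TPM scale, -0.13 and -0.15.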

Other observations

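Genes on each side of the receptor cluster on chromosome 1, *Usf1*, *Alyref2*, *Ncstn* and *Copa*, were looked at after the values of the cluster were seen. They were the nearest protein-coding genes averaging 1 FPKM or more, and genes below that level were passed over. Their log2 fold changes lay between -0.20 and 0.16 from WT stage 2 to WT stage 3, and between -0.19 and 0.29 in *Med23*-deficient stage 2, with a limma adjusted p of 0.480 or more throughout.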
